A study of Mus musculus with 36 samples.

Results

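Mild hypomorph embryos that carried the neo allele on both chromosomes (Chd8 neo/neo) were compared with wildtype Chd8 +/+ embryos at E12.5, by RNA sequencing of the neocortex. The comparison holds every gene with enough counts in the E12.5 table, which was 18810 of the 46603 genes listed, in 6 libraries made from 12 of the 36 samples of the series, because the 2 sequencing runs of a library were deposited as separate samples and were added together here. Each group had 3 libraries, each from the neocortices of 1 embryo, and all embryos were of the C57Bl/6J strain. The other E12.5 genotypes were Chd8 +/-, with 1 null allele, and Chd8 neo/-, with 1 neo and 1 null allele, also with 3 libraries each. They entered the same fit, and the +/+ libraries served as controls for every mutant genotype.

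The neo allele holds a neomycin resistance cassette in an intron near the start of Chd8, which lowers the yield of normal transcript without removing the gene. It is present in all cells from conception, so that neurons, progenitors, vessels and blood of the dissected tissue all carry it. Counts over whole genes do not separate normal transcripts from those that run into the cassette. In bulk tissue, fewer cells of a type and less RNA per cell cannot be told apart.

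Chd8 encodes an ATP-dependent chromatin remodeller of the CHD family, which is found at active promoters in neural progenitors and has been described as holding down genes that β-catenin or p53 activate. At this stage the dorsal telencephalon consists of radial glia that divide at the ventricle, the first intermediate progenitors, and a thin layer of early neurons that have left the cell cycle. Radial glia express genes of DNA replication and mitosis, whereas young neurons switch on genes of the cytoskeleton, ion channels, synapse and axon growth.

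Total counts ranged from 38774591 to 61051667 over the 12 libraries, from 42782134 to 50452472 in +/+ and from 42303206 to 61051667 in neo/neo. Mitochondrial transcripts took 2.532% to 2.965% of the counts in +/+ and 2.497% to 2.614% in neo/neo libraries. By Xist and Y-linked counts, neo/neo replicates 1 and 2 and +/+ replicate 3 were female, and neo/neo replicate 3 and +/+ replicates 1 and 2 were male, so that sex moved in part with genotype. Levels are given as CPM, TMM-scaled counts relative to library size, and differences as log2 fold changes with their standard errors (SE) from edgeR's quasi-likelihood test, with p-values adjusted over all 18810 genes. A gene was called when its adjusted p was under 0.05. All 9 markers of dorsal telencephalon fixed for the check were expressed, with a summed level of 1546 to 1631 CPM in +/+ and 1519 to 1716 CPM in neo/neo libraries.

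Chd8 (ENSMUSG00000053754, chr14:52198151-52257723 in GRCm38) was measured at 237, 235 and 239 CPM in the +/+ libraries and at 213, 203 and 211 CPM in the neo/neo libraries. Every neo/neo library lay below every +/+ library, with a log2 fold change of -0.18 (SE 0.042, adjusted p = 0.0201). It missed the threshold in 8 of the 27 alternatives tried, and the log2 fold change was -0.06 (adjusted p = 0.380) once the trend of counts with exon length and GC content was removed from each library. Counts over the whole Chd8 gene were higher in neo/neo than in +/- libraries, by 0.33 on the log2 scale (adjusted p = 0.00897). They were lower in neo/- than in neo/neo libraries, with a log2 fold change of -0.49 (adjusted p = 0.000239). These counts include transcripts that run into the cassette. The paper reported a larger loss in neo/neo than in +/- embryos for full-length CHD8 protein at E12.5. It reported the same order for Chd8 transcripts by RT-PCR at an earlier stage.

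**Figure D1:**
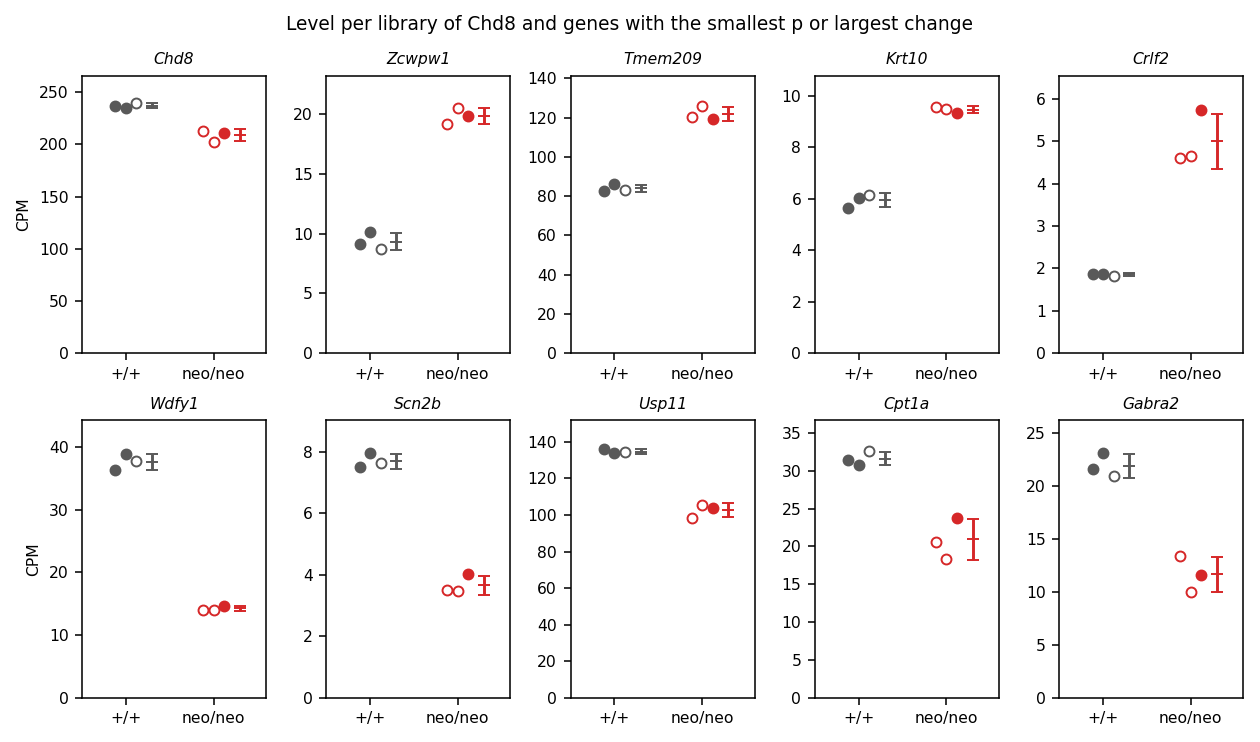
Level in CPM (y axis, from 0) in each of the 3 +/+ (grey) and 3 neo/neo (red) libraries, for Chd8 and 9 genes with a small p or a large change; open circles are Xist-positive and filled circles Y-positive libraries, and bars give the mean ± SD (n = 3). The groups do not overlap for any of these 10 genes, and the 9 genes other than Chd8 were chosen among genes without overlap. Zcwpw1 lies between 8.74 and 10.1 CPM in +/+ and between 19.2 and 20.5 CPM in neo/neo libraries.

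Of the 18810 genes tested, 697 were higher and 837 lower in neo/neo than in +/+ neocortices, which is 3.71% and 4.45% of all genes, or 8.16% together. Most changes were small, with a median log2 fold change of 0.27 among genes called higher and -0.31 among genes called lower. A log2 change above 0.5 was found for 111 of the genes that rose and one below -0.5 for 156 of those that fell. Over all tested genes the median was 0.01, and the groups did not overlap for 26% of them. Among the 1534 called genes, 1512 had no overlap, so that a lack of overlap adds little to a call. Genes named below for the smallest p or the largest change were chosen among those without overlap.

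The number of called genes depended on single libraries. It was 435 without neo/neo replicate 2, 565 without neo/neo replicate 1, 564 without +/+ replicate 2, 800 without +/+ replicate 3 and 2605 without neo/neo replicate 3. With sex as a term 1005 genes were called, and comparing male libraries alone, 1 neo/neo against 2 +/+ with the spread taken from all groups, left 6, among them Zcwpw1, Tmem209 and Wdfy1, whereas comparing female libraries alone left 292. No gene passed a test of the difference between the sexes in the genotype effect (lowest adjusted p = 0.668 with edgeR, 730 genes at an unadjusted p under 0.05, no other tool run).

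**Figure D2:**
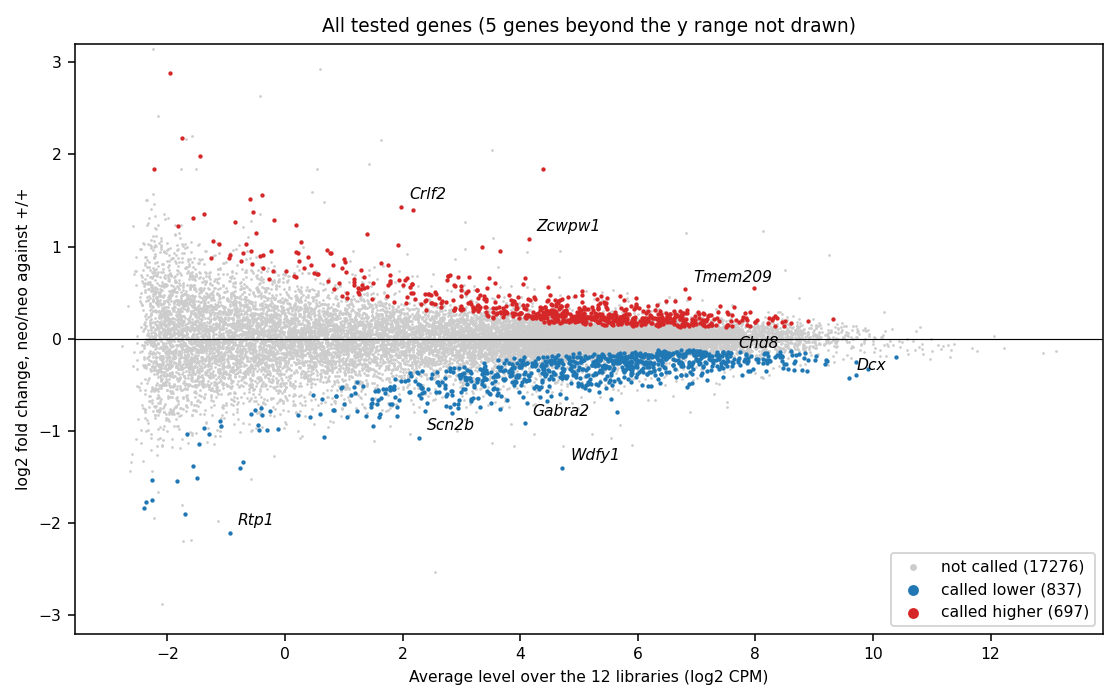
Log2 fold change in neo/neo against +/+ (y axis) against the average level over the 12 libraries in log2 CPM (x axis), 1 point per tested gene, with 697 genes called higher in red, 837 called lower in blue and the rest in grey. Called genes of high level lie close to 0 on the y axis, and Crlf2 and Zcwpw1 stand above and Wdfy1, Scn2b and Gabra2 below the other genes of their level.

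The smallest p among genes that rose belonged to Zcwpw1, a reader of histone methylation known for its role in meiosis. It was at 9.16, 10.1 and 8.74 CPM in +/+ and at 19.2, 20.5 and 19.8 CPM in neo/neo libraries, a log2 fold change of 1.09 (SE 0.074, adjusted p = 3.89e-06). Every neo/neo library was far above the +/+ libraries, and the call held in all 27 alternatives. Tmem209, which encodes a protein of the nuclear envelope, stood at 82.8, 86.03 and 83.3 CPM in +/+ and 120.3, 126 and 119 CPM in neo/neo libraries, a rise of 0.54 (SE 0.040, adjusted p = 9.23e-06). Krt10, a keratin of the epidermis, was measured at 5.66, 6.04 and 6.17 CPM and at 9.59, 9.49 and 9.33 CPM, respectively, with a log2 fold change of 0.67 (SE 0.069, adjusted p = 0.000408). For both genes the lowest neo/neo library was far above the highest +/+ library.

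Crlf2, which encodes a cytokine receptor chain, was at 1.88, 1.86 and 1.83 CPM in +/+ and 4.61, 4.64 and 5.75 CPM in neo/neo libraries, with a log2 fold change of 1.43 (SE 0.16, adjusted p = 0.000747). Dhx34, an RNA helicase of nonsense-mediated decay, rose from 26.7, 26.4 and 27.4 CPM to 38.03, 38.1 and 35.8 CPM (log2 fold change 0.47, SE 0.058, adjusted p = 0.00124). G6pc3, a glucose-6-phosphatase, rose from 22.1, 22.9 and 21.6 CPM to 31.1, 31.2 and 28.6 CPM (log2 fold change 0.45, SE 0.055, adjusted p = 0.00124), and in these genes as in Crlf2 no neo/neo library reached into the +/+ range. Aaas, a component of the nuclear pore, rose by 0.36, Prrg2 by 0.56 and the uncharacterised transcript 2610017A05Rik by 1.14 on the log2 scale, all with an adjusted p of 0.00138 or less.

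The largest rise among genes with at least 50 counts on average was that of Gm26917, a non-coding transcript, at 12.2, 7.01 and 9.503 CPM in +/+ and 17.6, 47.8 and 37.2 CPM in neo/neo libraries (log2 fold change 1.84, SE 0.38, adjusted p = 0.0269). Its levels spread widely within both groups, with neo/neo replicate 1 far below the other two. Muc6, a secreted mucin, was low throughout, at 0.685, 0.684 and 0.553 CPM in +/+ and 1.04, 1.52 and 1.94 CPM in neo/neo libraries, with a log2 fold change of 1.24 (SE 0.25, adjusted p = 0.01103).

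Among genes that fell, Wdfy1 had both the smallest p and the largest change of those with at least 50 counts. This gene encodes an endosomal protein that links Toll-like receptors to their adaptor. It was at 36.4, 38.96 and 37.8 CPM in +/+ and 14.1, 14.05 and 14.7 CPM in neo/neo libraries, with a log2 fold change of -1.40 (SE 0.054, adjusted p = 3.01e-09). Its mean was 38.6 CPM in +/- and 14.6 CPM in neo/- libraries, so that the libraries with a neo allele formed one level and those without it another. The difference between neo/- and neo/neo was 0.03 (adjusted p = 0.882). Wdfy1 is one of 11 genes listed here because C57BL/6 substrains are known to differ at or near them, and the part of such differences in this result was not tested.

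Mmrn1 of the same list, a protein of platelets and endothelium, was at 8.61, 8.35 and 7.59 CPM in +/+ and 13.3, 17.6 and 16.4 CPM in neo/neo libraries (log2 fold change 0.95, SE 0.13, adjusted p = 0.00243). Every neo/neo library was above every +/+ library. Fgfbp3, a carrier of fibroblast growth factors, rose by 0.52 (adjusted p = 0.00563). In all, 3 of the 9 tested genes of the list were higher and 1 was lower (33.3% and 11.1%, against 3.71% and 4.45% of all genes).

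Scn2b, an auxiliary subunit of neuronal sodium channels, was at 7.496, 7.98 and 7.63 CPM in +/+ and 3.496, 3.47 and 4.01 CPM in neo/neo libraries, a log2 fold change of -1.07 (SE 0.11, adjusted p = 0.000265). Gabra2, a subunit of the GABA-A receptor, was at 21.7, 23.2 and 20.9 CPM and 13.4, 9.98 and 11.6 CPM (log2 fold change -0.92, SE 0.14, adjusted p = 0.00389). For both genes all neo/neo libraries lay far below the +/+ libraries. Pnma2, a gene of retrotransposon origin expressed in neurons, fell from 16.7, 16.97 and 16.9 CPM to 8.62, 10.7 and 10.5 CPM (log2 fold change -0.76, SE 0.089, adjusted p = 0.00101). Cpt1a, which brings fatty acids into mitochondria, fell from 31.4, 30.8 and 32.6 CPM to 20.6, 18.4 and 23.8 CPM (log2 fold change -0.60, SE 0.075, adjusted p = 0.00132).

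Smaller falls with little spread were found for the zinc finger gene Zfp37 at -0.47, the deubiquitinase Usp11 at -0.39, the mitochondrial serine carrier Sfxn1 at -0.36, the amino acid transporter Slc36a4 at -0.36 and the scaffold gene Mapk8ip2 at -0.29 on the log2 scale. Hexim1, an inhibitor of the elongation factor P-TEFb, fell by 0.38. These 6 genes were chosen among those without overlap between the groups, and their adjusted p lay between 0.000747 and 0.00141. Cbs, an enzyme of homocysteine removal, was at 3.64, 4.13 and 3.95 CPM in +/+ and 1.94, 1.504 and 2.66 CPM in neo/neo libraries (log2 fold change -0.94, SE 0.20, adjusted p = 0.0133), and Gm37527 at 2.603, 1.699 and 1.51 CPM and 0.969, 0.545 and 1.300 CPM (log2 fold change -1.06, SE 0.30, adjusted p = 0.0466), a call that held in 8 of 27 alternatives.

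Of the genes that the study singled out for its E12.5 libraries, Slc1a5, a glutamine transporter, was at 42.8, 33.4 and 38.7 CPM in +/+ and 53.4, 52.8 and 49.7 CPM in neo/neo libraries (log2 fold change 0.44, SE 0.078, adjusted p = 0.00596). The demethylase gene Kdm5b was at 231, 226 and 242 CPM and 190.00, 201 and 197 CPM (log2 fold change -0.25, SE 0.042, adjusted p = 0.00496). In both, the 3 neo/neo libraries stood apart from the 3 +/+ libraries. The kinase gene Pim1 rose by 0.28 (adjusted p = 0.0222) and the sodium/proton exchanger gene Slc9b2 by 0.59 (adjusted p = 0.0354), the latter with overlapping groups. Gpat2, an acyltransferase of the germline, had a log2 fold change of 0.73 (SE 0.24, adjusted p = 0.0744). Axin2, a Wnt feedback gene, had one of 0.11 (SE 0.1, adjusted p = 0.5298). Rpl26, a ribosomal protein gene, had one of 0.12 (SE 0.066, adjusted p = 0.268). None of these passed the threshold. The paper gives Gpat2 as significant in neo/- embryos only and names Rpl26 for the severe hypomorphs. Axin2 is the one it names as upregulated in neo/neo embryos.

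Among genes of DNA replication every call was on the higher side. Of 64 listed genes, all of which were tested, 18 were higher and 0 lower, a share of 28.1% against 3.71% of all genes, and 56 of the 64 log2 fold changes were positive. The median was 0.12, against 0.01 over all genes. The members called were subunits of polymerase δ (Pold1, Pold2), of the clamp loader (Rfc2, Rfc4, Rfc5), of the MCM helicase (Mcm2, Mcm3, Mcm6) and of the GINS complex (Gins2, Gins4), the loading and firing factors Cdt1, Mcm10 and Dbf4, the chromatin assembly factors Chaf1a and Chaf1b, and Dut, Tipin and Uhrf1.

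Pold2 was at 50.7, 57.4 and 56.2 CPM in +/+ and 67.7, 71.6 and 68.6 CPM in neo/neo libraries (log2 fold change 0.34, SE 0.050, adjusted p = 0.00243). Dut, which keeps uracil out of DNA, was at 104, 103 and 103 CPM and 133, 132 and 120.00 CPM (log2 fold change 0.32, SE 0.054, adjusted p = 0.005305). Rfc5 was at 57.95, 53.7 and 53.8 CPM and 75.02, 73.8 and 62.7 CPM (log2 fold change 0.35, SE 0.062, adjusted p = 0.00572). In Dut and Rfc5, neo/neo replicate 3 was the lowest of its group, as it was for Chaf1b, at 60.8, 63.4 and 64.4 CPM in +/+ and 76.99, 84.3 and 71.5 CPM in neo/neo libraries (log2 fold change 0.30, SE 0.053, adjusted p = 0.005703). The count of called members was 29 without neo/neo replicate 3, 6 without replicate 2, 7 without replicate 1, 8 without +/+ replicate 1, 12 without +/+ replicate 2 and 6 with only the 6 libraries in the fit. Among female libraries alone it was 2 with a median of 0.14, and among male libraries no member passed edgeR's adjusted threshold, 14 were higher at an unadjusted p under 0.05 and the median was 0.06.

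Promoters of 6 of these members, the 4 named with values above and Cdt1 and Pold1, are shown. The reason is that the list is rich in targets of the E2F factors, a family of regulators of S phase genes. Typical E2F words (TTTCCCGC, TTTGGCGC, TTTGCCGC or TTTCGCGC, on either strand) were searched in these promoters. Each runs from 250 bases before to 50 after the transcript start, 5′ to 3′ on the strand of the gene, from RefSeq for GRCm38.p6. Capitals mark such an E2F word, or the word CCAAT on either strand, which NF-Y binds. The promoters lie at chr11:5878207-5878506 on the minus strand for Pold2, chr2:125247265-125247564 on the plus strand for Dut, chr16:93883651-93883950 on the plus strand for Chaf1b, chr5:117388974-117389273 on the minus strand for Rfc5, chr8:122567765-122568064 on the plus strand for Cdt1 and chr7:44548766-44549065 on the minus strand for Pold1.
Pold2: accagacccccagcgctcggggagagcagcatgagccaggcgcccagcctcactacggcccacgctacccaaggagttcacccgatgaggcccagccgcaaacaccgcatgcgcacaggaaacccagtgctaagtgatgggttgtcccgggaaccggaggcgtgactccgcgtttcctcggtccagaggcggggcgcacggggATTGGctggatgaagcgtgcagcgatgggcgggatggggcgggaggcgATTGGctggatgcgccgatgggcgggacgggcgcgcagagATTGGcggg
Dut: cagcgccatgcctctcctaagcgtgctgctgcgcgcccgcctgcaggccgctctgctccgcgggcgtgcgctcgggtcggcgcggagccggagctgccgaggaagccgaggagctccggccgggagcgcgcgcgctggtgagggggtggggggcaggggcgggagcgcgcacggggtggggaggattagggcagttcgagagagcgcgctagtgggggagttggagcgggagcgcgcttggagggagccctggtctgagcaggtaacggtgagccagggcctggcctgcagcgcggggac
Chaf1b: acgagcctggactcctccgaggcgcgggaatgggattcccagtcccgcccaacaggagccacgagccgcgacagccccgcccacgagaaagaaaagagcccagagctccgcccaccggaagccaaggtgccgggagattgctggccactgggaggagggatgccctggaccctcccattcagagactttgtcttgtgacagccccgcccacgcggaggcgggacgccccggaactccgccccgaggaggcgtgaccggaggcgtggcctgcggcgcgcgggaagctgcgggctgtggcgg
Rfc5: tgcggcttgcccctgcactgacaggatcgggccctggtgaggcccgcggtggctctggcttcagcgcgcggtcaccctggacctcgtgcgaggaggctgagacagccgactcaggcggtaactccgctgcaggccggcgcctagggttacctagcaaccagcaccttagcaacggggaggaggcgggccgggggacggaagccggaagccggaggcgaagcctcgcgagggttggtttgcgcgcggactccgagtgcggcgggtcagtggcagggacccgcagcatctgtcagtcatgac
Cdt1: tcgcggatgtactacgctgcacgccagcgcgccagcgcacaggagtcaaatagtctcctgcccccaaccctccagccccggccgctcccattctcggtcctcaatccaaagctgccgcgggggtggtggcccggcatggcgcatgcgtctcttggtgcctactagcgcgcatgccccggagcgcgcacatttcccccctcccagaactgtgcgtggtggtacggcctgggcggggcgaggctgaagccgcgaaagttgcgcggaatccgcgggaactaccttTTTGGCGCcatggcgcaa
Pold1: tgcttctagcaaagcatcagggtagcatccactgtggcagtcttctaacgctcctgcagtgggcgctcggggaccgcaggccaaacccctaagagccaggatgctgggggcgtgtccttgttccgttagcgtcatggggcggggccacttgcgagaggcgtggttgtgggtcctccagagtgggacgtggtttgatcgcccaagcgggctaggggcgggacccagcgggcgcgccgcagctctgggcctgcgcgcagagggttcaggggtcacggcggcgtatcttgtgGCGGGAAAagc
Cdt1 and Pold1 hold 1 E2F word each, downstream of the start, and Pold2 holds 3 copies of CCAAT on the opposite strand. Dut, Chaf1b and Rfc5 hold neither word. For Dut the whole window lies downstream of the start of the gene as counted (chr2:125247190). The bases before that start were not searched. Of tested genes, 12601 had a promoter in the table, and an E2F word was found in 3.90% of them. The share was 34.0% (18 of 53) in the replication list and 28.6% (4 of 14) in its called members, 7.52% (40 of 532) in genes called higher and 3.22% (20 of 621) in genes called lower. CCAAT was found in 38.5% of all, 44.0% of called higher and 33.8% of called lower genes, and TTTGAA, the core word of TCF/LEF factors, in 12.1%, 14.3% and 9.82%. These are matches of letters and not bound sites.

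Most calls among regulators of the G1/S transition were also on the higher side, with 6 of 34 tested members higher and 1 lower (17.6% and 2.94%) and a median of 0.08. Mybl2, an activator of late cell cycle genes, was at 69.9, 63.2 and 78.3 CPM in +/+ and 97.4, 94.7 and 81.3 CPM in neo/neo libraries (log2 fold change 0.37, SE 0.078, adjusted p = 0.0142). The cyclin gene Ccne1 rose by 0.28, E2f4 by 0.22 and the pocket protein gene Rbl1 by 0.22, and E2f1 and E2f5 were also called higher. The member that fell was Cdkn1b, the inhibitor p27 of cyclin-dependent kinases, at 160.00, 156 and 161 CPM in +/+ and 132, 125 and 131 CPM in neo/neo libraries (log2 fold change -0.30, SE 0.042, adjusted p = 0.00191). Cdkn1b stood well apart in the groups, while the 6 members that rose lost their call together when any one of neo/neo replicates 1 and 2 or +/+ replicate 2 was left out, where 9 to 11 were higher at an unadjusted p under 0.05 in edgeR. Without neo/neo replicate 3, 10 were called higher, as with DESeq2 on all libraries.

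In the mitosis list 5 of 63 members were higher and 0 lower, with 56 positive values and a median of 0.09. The share called higher was 7.94%, against 3.71% of all genes. Cdc20, an activator of the anaphase-promoting complex, was at 138, 129 and 145 CPM in +/+ and 166, 166 and 160.2 CPM in neo/neo libraries (log2 fold change 0.26, SE 0.046, adjusted p = 0.00594). Cdca8, a subunit of the chromosomal passenger complex, rose by 0.27 and the centromere genes Cenpa and Cenph by 0.28 and 0.25 on the log2 scale. The mitotic kinase gene Plk1 was also called. It was 14 members without neo/neo replicate 3, 2 without replicate 1 and 3 without replicate 2.

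**Figure D3:**
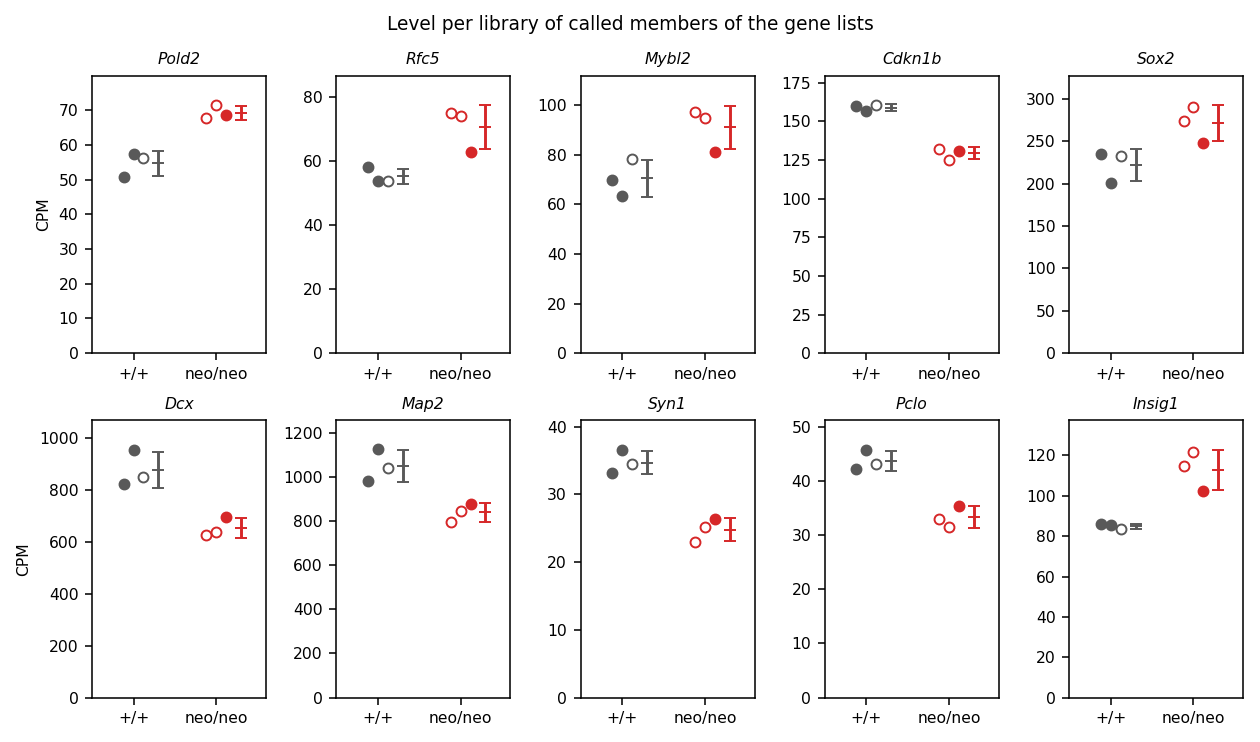
Level in CPM (y axis, from 0) in each of the 3 +/+ (grey) and 3 neo/neo (red) libraries for 10 called members of the gene lists; open circles are Xist-positive and filled circles Y-positive libraries, and bars give the mean ± SD (n = 3). Pold2, Rfc5, Mybl2, Sox2 and Insig1 are higher and Cdkn1b, Dcx, Map2, Syn1 and Pclo lower in every neo/neo library. The neo/neo replicate closest to the +/+ libraries is the Y-positive one for Rfc5, Mybl2, Sox2, Insig1, Dcx, Map2 and Syn1. For Pold2 and Cdkn1b it is an Xist-positive one.

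DNA repair genes were called higher in 16 and lower in 2 of 73 members (21.9% and 2.74%), with a median of 0.09. Xrcc4, which acts in end joining, was at 6.498, 7.81 and 7.87 CPM in +/+ and 10.8, 11.6 and 12.6 CPM in neo/neo libraries (log2 fold change 0.66, SE 0.090, adjusted p = 0.00161). Fanci and Fancd2, the central pair of the Fanconi pathway, rose by 0.33 and 0.29. Pms2 and Msh6 of mismatch repair were also called higher. The translesion polymerase gene Rev3l was lower at -0.23 (adjusted p = 0.00732), as was the ligase gene Lig4 at -0.18, the partner of Xrcc4, with a call that held in 10 of 27 alternatives. The count of repair genes called higher was 5 without neo/neo replicate 2, 7 without replicate 1, 9 without either +/+ replicate 2 or 3, and 4 with only the 6 libraries.

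Of 14 damage kinase and checkpoint genes, 2 were higher and 1 lower (14.3% and 7.14%). Mdc1, which marks chromatin at double-strand breaks, was at 201, 175 and 215 CPM in +/+ and 307, 303 and 259 CPM in neo/neo libraries (log2 fold change 0.56, SE 0.089, adjusted p = 0.005305). The checkpoint kinase gene Chek2 rose by 0.26, and Trp53bp1 was at -0.14 (adjusted p = 0.0467). Of 28 tested p53 target genes, 2 were higher and 1 lower (7.14% and 3.57%), with a median of 0.01. The higher count was 0 in edgeR with only the 6 libraries and without +/+ replicate 2 or neo/neo replicate 1. In these fits 5 to 6 were higher at an unadjusted p under 0.05. It was 4 without neo/neo replicate 3, and DESeq2 called 3 higher with all libraries. Pidd1, a death domain adaptor, was at 38.9, 30.5 and 31.3 CPM in +/+ and 50.2, 43.2 and 42.9 CPM in neo/neo libraries (log2 fold change 0.43, SE 0.092, adjusted p = 0.0153). Gtse1, a mitotic gene, rose by 0.21 with overlapping groups, and Trp53inp1 fell by 0.25.

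The Wnt pathway list had 2 of 67 members higher and 2 lower (2.99% each), with a median of 0.08. The receptor gene Fzd2 was at 125, 117 and 128 CPM in +/+ and 146, 143 and 141 CPM in neo/neo libraries (log2 fold change 0.22, SE 0.046, adjusted p = 0.0116). The target gene Sp5 rose by 0.49, while the coactivator gene Pygo1 and Apc of the β-catenin destruction complex were lower at -0.14 and -0.20. The shares called were below those of all genes in both directions.

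Genes of radial glia were called higher in 3 of 31 members and lower in 0 (9.68% and 0%), with 27 positive values and a median of 0.15. The calls rested on single libraries, since their number was 0 in edgeR without +/+ replicate 2, neo/neo replicate 1 or neo/neo replicate 2 and with only the 6 libraries, where 6 to 10 members were higher at an unadjusted p under 0.05. It was 8 without neo/neo replicate 3, and DESeq2 called 8 with all libraries. Sox2, a transcription factor of neural stem cells, was at 235, 201 and 232 CPM in +/+ and 274.4, 291 and 249 CPM in neo/neo libraries (log2 fold change 0.29, SE 0.069, adjusted p = 0.0251). Pax6, a factor of cortical radial glia, was at 162, 148 and 155 CPM and 185, 176 and 170.3 CPM (log2 fold change 0.19, SE 0.044, adjusted p = 0.0199). The third was Mcm2, which is also in the replication list. The summed level of the 31 genes was 7861, 7566 and 8339 CPM in +/+ and 8947, 8993 and 7996 CPM in neo/neo libraries, so that neo/neo replicate 3 lay within the +/+ range. Of 20 genes of intermediate progenitors, 1 was higher (Gadd45g, 0.18) and 1 lower (Elavl2, -0.18). Each share was 5%, against 3.71% and 4.45% of all genes. The sum of these 20 genes, 1409 to 1453 CPM in +/+, overlapped that of 1418 to 1469 CPM in neo/neo libraries.

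Genes of early neurons were called on the lower side. Of 48 tested members, 8 were lower and 0 higher (16.7% against 4.45% of all genes), 42 log2 fold changes were negative and the median was -0.25. The microtubule-associated gene Dcx, which marks migrating neurons, was at 821, 952 and 849.8 CPM in +/+ and 627, 636 and 697 CPM in neo/neo libraries (log2 fold change -0.42, SE 0.081, adjusted p = 0.00976). Map2, a dendritic microtubule protein, was at 983, 1125 and 1042 CPM and 795, 847 and 878 CPM (log2 fold change -0.32, SE 0.061, adjusted p = 0.00842). Every neo/neo library was below every +/+ library for both. The adhesion gene Ncam1 fell by 0.41 and the splicing factor gene Rbfox2 by 0.27, and Elavl4, Ebf1, Celf4 and Dpysl3 were also called.

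The summed level of the early neuron genes was 11540, 13084 and 12340 CPM in +/+ and 9616, 10413 and 11030 CPM in neo/neo libraries. The groups did not overlap, and neo/neo replicate 3 was the highest of its group. Without this library 21 members were called lower, and without +/+ replicate 2, which had the highest sum, 2 were. The count was 4 without neo/neo replicate 1, 5 without neo/neo replicate 2 and 5 without +/+ replicate 3. The median of the list stayed between -0.30 and -0.15 over the 27 alternatives and was -0.15 among male and -0.27 among female libraries.

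The lists of synaptic, channel and receptor genes held more lower than higher genes. In the synaptic vesicle list 18 of 52 members were lower and 2 higher (34.6% and 3.85%), with a median of -0.34. The 18 became 6 without any one of +/+ replicate 2 and neo/neo replicates 1 and 2, 9 without +/+ replicate 3, 10 without neo/- replicate 1 and 32 without neo/neo replicate 3. Syn1, which tethers synaptic vesicles, was at 33.2, 36.5 and 34.4 CPM in +/+ and 22.9, 25.2 and 26.3 CPM in neo/neo libraries (log2 fold change -0.48, SE 0.075, adjusted p = 0.00316). Pclo and Bsn, giant scaffolds of the presynaptic active zone, had log2 fold changes of -0.39 (SE 0.061, adjusted p = 0.00316) and -0.47 (SE 0.084, adjusted p = 0.00718). Cplx2, a regulator of vesicle fusion, was at 126, 147 and 143 CPM and 97.3, 106 and 117 CPM (log2 fold change -0.38, SE 0.067, adjusted p = 0.00628). The groups stood apart for Cplx2, with neo/neo replicate 3 nearest to +/+. Among the members that rose was the secreted neuropeptide precursor gene Vgf, which was low at 0.665, 0.897 and 0.723 CPM in +/+ and 1.205, 1.22 and 1.79 CPM in neo/neo libraries (log2 fold change 0.89, SE 0.23, adjusted p = 0.0306).

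Synaptic adhesion and scaffold genes were lower in 13 of 58 members and higher in 0 (22.4% lower, median -0.24). Single libraries carried this count, which was 1 without +/+ replicate 2 or neo/neo replicate 2, 2 without neo/neo replicate 1, 4 without +/+ replicate 3 and 30 without neo/neo replicate 3. The X-linked adhesion gene Nlgn3 was at 23.8, 24.8 and 24.5 CPM in +/+ and 17.5, 16.6 and 18.7 CPM in neo/neo libraries (log2 fold change -0.47, SE 0.075, adjusted p = 0.00372). Its presynaptic partner family member Nrxn3 was at 45.3, 49.1 and 46.03 CPM and 31.98, 31.9 and 35.7 CPM (log2 fold change -0.50, SE 0.11, adjusted p = 0.0196). Neither gene had a neo/neo library within the +/+ range. Homer2, a postsynaptic scaffold, was lower at -0.25 and the adhesion gene Slitrk3 at -0.70.

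Voltage-gated channel genes were lower in 14 of 70 tested members and higher in 0 (20% lower, median -0.27). The count was 4 without any one of +/+ replicate 2 and neo/neo replicates 1 and 2, and 29 without neo/neo replicate 3. Besides Scn2b, the pore gene Cacna1b of N-type calcium channels was at 35.8, 38.8 and 30.2 CPM in +/+ and 20.3, 21.5 and 25.3 CPM in neo/neo libraries (log2 fold change -0.64, SE 0.10, adjusted p = 0.00511). The β subunit gene Cacnb4 and the sodium channel gene Scn8a were lower at -0.41 and -0.36. Transmitter receptor genes were lower in 12 of 56 and higher in 0 (21.4% lower, median -0.34). Among them were Gabra2, described above, and the glutamate receptor gene Gria3, lower at -0.36. Without +/+ replicate 2 or neo/neo replicate 2, 1 receptor gene was called in each case, and the count was 4 without neo/neo replicate 1, 7 without +/+ replicate 3 and 25 without neo/neo replicate 3.

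Axon guidance genes were lower in 6 of 52 members (11.5%, median -0.14), among them the semaphorin receptors Nrp1 at -0.28, Plxnd1 at -0.22 and Nrp2 at -0.44 and the ligand gene Sema3c at -0.36. Nrp2 varied among mutants, at 162, 173 and 156 CPM in +/+ and 99.5, 116 and 145 CPM in neo/neo libraries. The count of axon guidance genes called lower was 0 in edgeR without any one of +/+ replicate 2 and neo/neo replicates 1 and 2, where 15 to 18 were lower at an unadjusted p under 0.05. DESeq2 called 16 with all libraries. The count was 1 without +/+ replicate 3, 3 without neo/- replicate 1, 12 without +/- replicate 2, 19 without neo/neo replicate 3 and 2 once the trend with exon length and GC content was removed. Genes listed from general knowledge as targets of the neuronal repressor REST were lower in 12 of 47 members and higher in 1 (25.5% and 2.13%, median -0.33). Here the lower count was 5 without any one of +/+ replicate 2 and neo/neo replicates 1 and 2, 7 without +/+ replicate 3 or neo/- replicate 1, and 29 without neo/neo replicate 3. Celsr3, an adhesion receptor of axon tracts, was at 180.3, 169 and 162 CPM and 129, 131 and 141 CPM (log2 fold change -0.35, SE 0.059, adjusted p = 0.00494). Several of the members called, such as Syn1, Bsn, Nrxn3 and Vgf, stand in the synaptic lists as well.

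**Figure D4:**
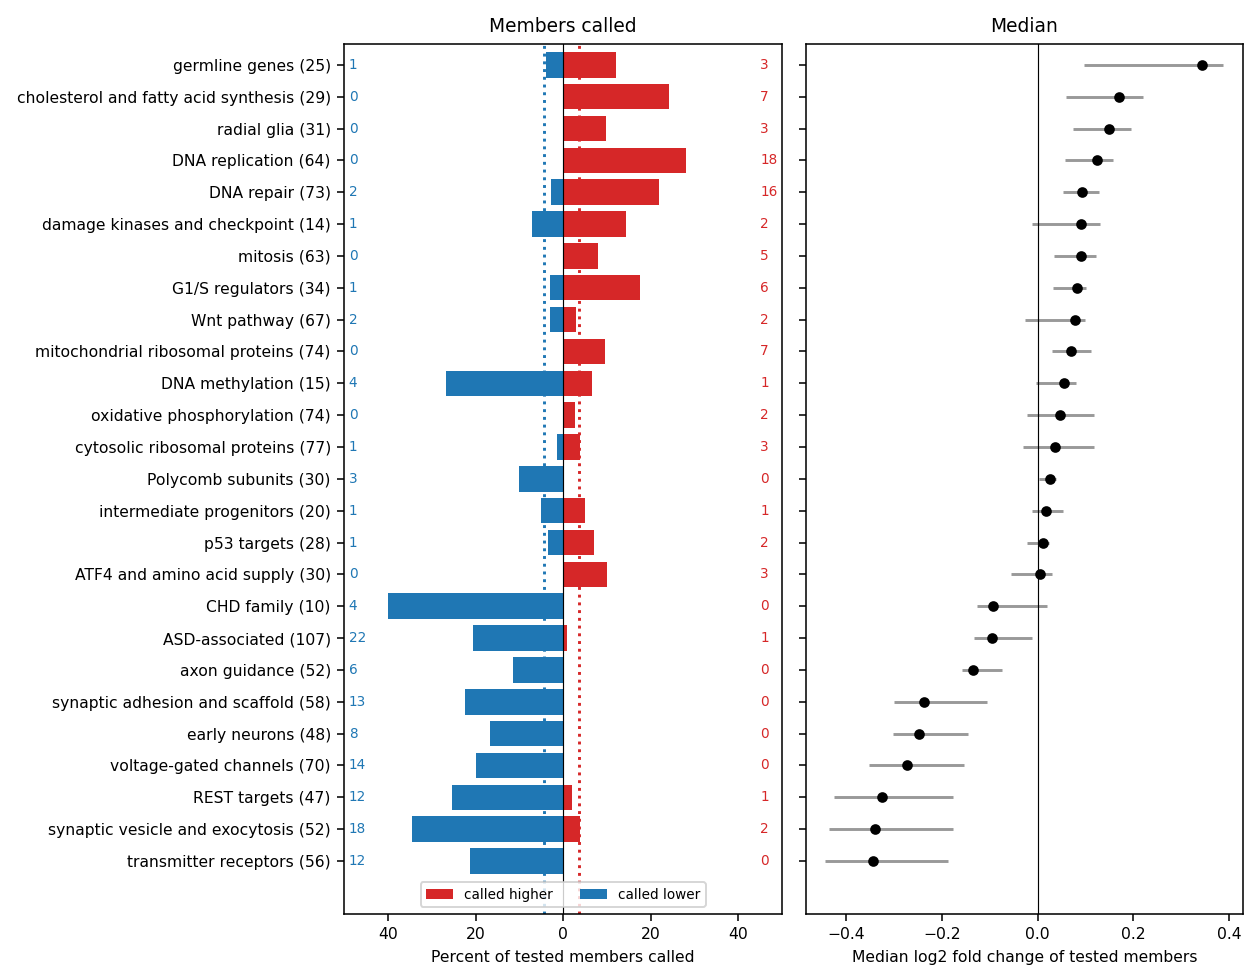
Left, the percent of tested members called higher (red, to the right) and lower (blue, to the left) in each of the 26 gene lists, with the number tested in parentheses, the numbers called at the margins and dotted lines at the shares of all tested genes (3.71% and 4.45%); right, the median log2 fold change of each list (points) and its range over the 27 alternatives (grey lines). Replication and repair lie on the higher side and synaptic, receptor and channel lists on the lower side, with medians from 0.09 to 0.12 and from -0.34 to -0.24.

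Of 107 genes associated with autism, 22 were lower and 1 higher (20.6% and 0.935%), 87 log2 fold changes were negative and the median was -0.10. The ubiquitin ligase gene Ube3a was at 184, 199.9 and 196 CPM in +/+ and 159, 161 and 162 CPM in neo/neo libraries (log2 fold change -0.27, SE 0.039, adjusted p = 0.00243). Chd3, a remodeller of the NuRD complex, was at 567, 552 and 557 CPM and 415, 419 and 478 CPM (log2 fold change -0.35, SE 0.054, adjusted p = 0.00281). The membrane anchor gene Ank2 was at 249, 259 and 265 CPM and 217, 221 and 217 CPM (log2 fold change -0.24, SE 0.040, adjusted p = 0.00479). All 3 genes were lower in every neo/neo library. The single member called higher, the homeobox gene Adnp, was at 2.02, 2.03 and 2.23 CPM in +/+ and 2.76, 3.404 and 2.94 CPM in neo/neo libraries (log2 fold change 0.54, SE 0.15, adjusted p = 0.0431). These levels are low for a gene known to be widely expressed in the embryonic brain, so the counts may miss part of its transcripts, which was not tested, and the call held in 14 of 27 alternatives. The lower count was 7 without neo/neo replicate 2, 8 without neo/neo replicate 1, 9 without +/+ replicate 2, 12 without +/+ replicate 3 and 38 without neo/neo replicate 3. The genes of this list are long, with a median exon length of 9271 bases against 3398 for all tested genes. With the trend of length and GC content removed, 8 were lower and 4 higher, and the median was -0.01.

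Over all genes, those called lower had a median exon length of 6416 and those called higher one of 2958 bases, with GC contents of 46.6% and 52.5% against 49.3% for all. Removing the trend left 1145 genes called, of which 671 were higher and 474 lower, so that the share of higher genes went from 45.4% to 58.6%. The median of the synaptic vesicle list was then -0.33, that of early neurons -0.22 and that of replication 0.15. It was -0.19 for synaptic adhesion and scaffold genes and -0.26 for transmitter receptors. Members called lower were 11 in place of 18 for synaptic vesicles, 5 in place of 8 for early neurons and 5 in place of 13 for synaptic adhesion. They were 10 in place of 14 for channels, 8 in place of 12 for receptors and 7 in place of 12 for REST targets. Replication genes called higher were 22 in place of 18. What set the trend was not tested.

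Of the CHD family, 4 of 10 members were lower (40%, against 4.45% of all genes) and 0 higher, namely Chd3, Chd8, Chd9 and Chd6. Chd9 was at 112, 119 and 111 CPM in +/+ and 97.1, 94.4 and 100.4 CPM in neo/neo libraries (log2 fold change -0.23, SE 0.041, adjusted p = 0.00628), and Chd6 had a log2 fold change of -0.16 (SE 0.043, adjusted p = 0.0378). With the length and GC trend removed 1 member was lower and 1 higher, and without any one of +/+ replicates 2 and 3 and neo/neo replicate 2, 2 were lower. Among 15 tested genes of DNA methylation, 4 were lower and 1 higher (26.7% and 6.67%). The methyltransferase gene Dnmt3a was at 283, 267 and 294 CPM and 232, 215 and 214 CPM (log2 fold change -0.35, SE 0.048, adjusted p = 0.00164). Tet1 and Tet2, which oxidise methylcytosine, were lower at -0.23 (adjusted p = 0.00784) and -0.27 (adjusted p = 0.00972), with Tet1 at 71.6, 70.2 and 70.98 CPM in +/+ and 61.1, 61.3 and 58.7 CPM in neo/neo libraries. The maintenance factor gene Uhrf1, which is also in the replication list, was higher at 0.25 with overlapping groups. With the length and GC trend removed, 1 gene of DNA methylation was lower and 0 higher. Of 30 Polycomb subunits 3 were lower and 0 higher (10% and 0%), among them Phf19 at -0.50 and Mtf2 at -0.14, and the median was 0.03.

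Germline genes are mostly silent in the neocortex, and 25 of 39 listed were tested. Wbp2nl and D1Pas1 were near 0 in +/+ and passed the filter on low counts through libraries where they were higher, so that their values are a description only. Wbp2nl had 3, 0 and 2 counts in +/+ and 8, 22 and 14 counts in neo/neo libraries. D1Pas1, a retrotransposed copy of a helicase gene, had 0, 5 and 3 counts in +/+ and 9, 13 and 20 counts in neo/neo libraries. Rec8, a meiotic cohesin subunit on chromosome 14 near Chd8, was lower, at 9.26, 9.84 and 8.91 CPM in +/+ and 5.55, 5.55 and 7.72 CPM in neo/neo libraries (log2 fold change -0.57, SE 0.12, adjusted p = 0.0123).

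In metabolism, 7 of 29 genes of cholesterol and fatty acid synthesis were higher and 0 lower (24.1%), with 26 positive values and a median of 0.17. Insig1, a sterol sensor, was at 85.8, 85.3 and 83.5 CPM in +/+ and 115, 122 and 102 CPM in neo/neo libraries (log2 fold change 0.41, SE 0.056, adjusted p = 0.00161). Srebf1, a transcription factor of lipid synthesis, was at 85.9, 69.2 and 78.3 CPM and 106, 103 and 102 CPM (log2 fold change 0.41, SE 0.068, adjusted p = 0.00445). The enzyme gene Mvk rose by 0.22, and Dhcr7, Idi1 and Srebf2 were also called. The count was 2 without neo/neo replicate 1, 2 without replicate 2, 3 without +/+ replicate 2, 4 without +/+ replicate 1 and 16 without neo/neo replicate 3. Of the 30 tested genes of ATF4 and amino acid supply, 3 were higher (10%, against 3.71% of all genes) and 0 lower. These were Slc1a5, Shmt1 of folate metabolism at 0.35 and Pycr1 of proline synthesis at 0.28, and the median was 0.00.

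Of 77 tested cytosolic ribosomal protein genes, 3 were higher and 1 lower (3.90% and 1.30%, against 3.71% and 4.45% of all genes). The higher ones were Rplp2, Rpl35a and Rpl36, at 0.26, 0.29 and 0.27. Families of this kind have many processed copies that can take part of the reads. The mitochondrial ribosomal list had 7 of 74 members higher and 0 lower (9.46%, median 0.07), with Mrpl54 at 0.31 and Mrpl17 at 0.24. This count was 0 in edgeR without neo/neo replicate 2, with 9 at an unadjusted p under 0.05, while DESeq2 called 9 with all libraries. It was 3 without neo/neo replicate 1 or either +/+ replicate 1 or 2, and 4 without +/+ replicate 3. Of 74 tested oxidative phosphorylation genes, 2 were higher and 0 lower (2.70% and 0%), Atp5d at 0.28 and Cyc1 at 0.14.

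Called genes were spread over all autosomes, and on chromosome X 66 of 655 tested genes were lower and 8 higher (10.1% and 1.22%). Outside chromosomes X and Y the shares were 4.25% and 3.80%. Usp11, named above, was the X-linked gene with the smallest p, at 136, 134 and 134 CPM in +/+ and 98.2, 106 and 104 CPM in neo/neo libraries (log2 fold change -0.39, SE 0.044, adjusted p = 0.000747), and the neuronal genes Dcx, Syn1, Nlgn3 and Gria3 also lie on this chromosome. With sex as a term, 51 X-linked genes were lower and 4 higher. The lower count was 39 with the length and GC trend removed, 18 with only the 6 libraries and 10 among female libraries. Among male libraries alone 0 were called in either direction by edgeR, and 76 were lower and 10 higher at an unadjusted p under 0.05, no other tool being run on them, and the median over X-linked genes was -0.06 there, -0.05 among female libraries and -0.05 in the comparison of all.

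**Figure D5:**
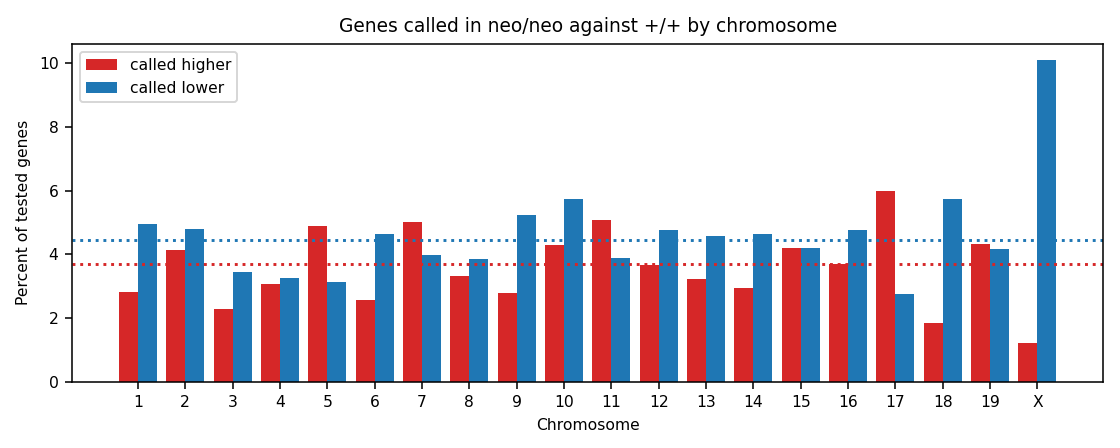
Percent of tested genes on each chromosome (x axis) called higher (red) and lower (blue) in neo/neo against +/+, with dotted lines at the shares of all tested genes. Chromosome X has 10.1% of its genes called lower and 1.22% called higher.

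Within 5 Mb of Chd8, a stretch that is inherited together with the neo allele, 137 genes were tested, and 6 were higher and 4 lower, Chd8 included (4.38% and 2.92%). Rabggta, a prenyltransferase subunit, was at 20.3, 20.3 and 20.5 CPM in +/+ and 24.7, 26.4 and 27.1 CPM in neo/neo libraries (log2 fold change 0.36, SE 0.050, adjusted p = 0.00182). Mmp14, a matrix metalloprotease, was at 78.4, 74.5 and 77.98 CPM and 55.3, 59.4 and 65.4 CPM (log2 fold change -0.36, SE 0.061, adjusted p = 0.005305). Pspc1 rose by 0.27 and Efs by 0.21. The shares were close to those of all genes.

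Markers of other cell types were called in 0 or 1 member of each list. Erythroid genes summed to 3332 to 4068 CPM in +/+ and 3596 to 4281 CPM in neo/neo libraries, with 0 of 13 called, microglial genes to 53.9 to 60.1 CPM and 44.9 to 57.7 CPM with 0 of 11 called, and mesenchymal genes to 716 to 901 CPM and 592 to 748 CPM with 0 of 11 called. Endothelial genes summed to 349.7 to 359 CPM and 314 to 350.1 CPM, and 1 of 12, the receptor gene Kdr, was lower at -0.17 (adjusted p = 0.0236). Ventral telencephalon genes summed to 989.6 to 1044 CPM in +/+ and 817 to 988 CPM in neo/neo libraries, with Gad1, an enzyme of GABA synthesis, lower at -0.40 (adjusted p = 0.0318) and 13 of 14 values negative. Cajal-Retzius genes summed to 459.8 to 519 CPM and 394 to 453 CPM, with the channel subunit gene Cacna2d2 lower at -0.29, while 6 of the 10 log2 fold changes were positive and the median was 0.01. The sums of the last 2 lists did not overlap between the groups, and the part of regional makeup in the neuronal results was not tested.

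The other lists had no or 1 member called. Olfactory epithelium genes summed to 15.6 to 17.5 CPM in +/+ and 14.1 to 17.9 CPM in neo/neo libraries, where Rtp1, a chaperone of odorant receptors, had 33, 26 and 47 counts and 4, 5 and 18 counts, respectively. Hem and choroid plexus genes summed to 261 to 352 CPM and 310.2 to 385 CPM, diencephalon and midbrain genes to 112 to 116 CPM and 100.1 to 128 CPM, oligodendrocyte lineage genes to 71.00 to 80.6 CPM and 62.6 to 88.7 CPM and surface ectoderm genes to 8.28 to 8.99 CPM and 7.89 to 8.79 CPM. All of these ranges overlapped, and 0 members of the last 4 lists were called.

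Directly compared with +/-, neo/neo libraries had 994 called genes (5.28% of those tested). Deviations of same-numbered +/- and neo/neo libraries from their group means correlated at 0.11, 0.20 and 0.20 across genes, and with the replicate number as a block the count was 572. It was 387 with sex as a term, 23 without neo/neo replicate 2, 60 without neo/neo replicate 1, 62 without +/- replicate 1, 308 without +/- replicate 3 and 2100 without neo/neo replicate 3. Zcwpw1 was higher in neo/neo than in +/- by 0.51 (adjusted p = 0.00897), Tmem209 by 0.18 (adjusted p = 0.0267) and Crlf2 by 0.71 (adjusted p = 0.0252). For Krt10 the difference of 0.19 did not pass (adjusted p = 0.113). Dcx was lower by 0.42, Map2 by 0.34 and Syn1 by 0.34 on the log2 scale, with adjusted p of 0.0182, 0.0159 and 0.0262.

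Between neo/- and neo/neo libraries 3 genes were called (0.0159%), which were Chd8, Zcwpw1 and Ide, the last an insulin-degrading protease. Zcwpw1 was higher in neo/- by 0.48 (adjusted p = 0.0461), but with an adjusted p of 0.223 with the replicate number as a block and of 0.931 with sex as a term. All 3 neo/- libraries were male and 2 of the 3 neo/neo libraries female. Ide had a log2 fold change of 0.04 (SE 0.087, adjusted p = 0.802) in neo/neo against +/+ and was higher in neo/- than in neo/neo libraries by 0.80 (adjusted p = 0.00908). As for Wdfy1, the part of differences between mouse substrains in the Ide result was not tested, so it cannot be assigned to the Chd8 genotype alone. With sex as a term 2 genes were called, Chd8 and Ide, and DESeq2 called 26 genes in this contrast. The Ide call was lost without neo/neo replicate 2 (adjusted p = 0.0787), and 23 genes were called without neo/neo replicate 3. A difference that missed the threshold does not show that these genotypes were alike.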

How the data were processed

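Neocortices of E12.5 embryos were sequenced by the authors as paired reads, with 1 embryo per library. Per the labels and file headers, reads were checked with FastQC 0.11.2, trimmed with Trim Galore 0.4.1, aligned to GRCm38.p4 with TopHat2 2.1.0 and counted on genes with featureCounts 1.5.0, without using strand, so that reads of a gene and of an overlapping antisense gene cannot be told apart. The authors deposited whole-number counts for each gene in each run, neither normalized nor filtered, and 0 columns of samples were left unused.

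The 2 runs of each library were summed. The 12 libraries were fitted together in R 4.3.3 with edgeR 4.0.16 (filterByExpr, TMM, robust quasi-likelihood test), with genotype as the only term, and p-values were adjusted by Benjamini-Hochberg. Replicates came from different litters, and p-values measure the spread between these embryos. On simulated counts for this comparison, 200 of 18810 genes were changed. The test recovered 22.5% of changes of 0.3, 53.0% of 0.6 and 73.0% of 1 on the log2 scale. The share of genes changed was smaller than the share called in the data, and no effect of sex or of single libraries was simulated. These rates need not hold for the data.

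Named genes were Chd8, the genes the study names for these libraries, the 10 called higher and 10 called lower with the smallest p and the 5 largest changes in each direction among genes with a mean of at least 50 counts and no overlap, up to 4 called members per direction of each gene list, called or abundant markers, and called genes within 5 Mb of Chd8. The other called members of lists, and Ide, were named after their values were seen. Some genes under this rule are not reported here. Gene lists were written from general knowledge, and the members, lists and rules were chosen with earlier results of these data known. Lists were described by counts and medians and not tested. Of the 5 sex-linked genes (Xist and 4 Y-linked genes), 0 were called.

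The results were recomputed with DESeq2 1.42.0, without and with a prior on fold changes, with RLE and upper quartile scaling, with other filters, only the 6 libraries, the replicate number as a block, sex, single runs, removal of the length and GC trend, and each library left out. Those for the direct contrasts with +/- and neo/- were chosen after seeing the data. Floors of 3 counts cover counting error only. Figures were drawn with matplotlib 3.10.9. The E10.5 libraries were not used here.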

Additional observations from a re-analysis of the deposited data

Results flagged for a closer look

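The effects of 2 genotypes against the same controls differed by a direct test for 3 of the genes named, which brought them to attention. Between neo/- and neo/neo libraries the log2 fold change was -0.49 for Chd8, 0.48 for Zcwpw1 and 0.80 for Ide. The call for Zcwpw1 had an adjusted p of 0.0461, close to the threshold, and of 0.223 with the replicate number as a block. Ide showed no such rise in neo/neo against +/+ libraries, with a log2 fold change of 0.04. Whether differences between mouse substrains had a part in the Ide result was not tested.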

How the results depend on the processing

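The count of 1534 called genes was 430 with only the 6 libraries in the fit, 1005 with sex as a term, 6 among male libraries alone and 292 among female libraries alone. It lay between 435 and 2605 when each library was left out in turn, and was 299 with the replicate block and only the 6 libraries. Under the other alternatives it was within 1.5 times of 1534, from 1074 with the first run alone to 2272 with DESeq2 and a prior, and the replicate block alone gave 1161 genes. Deviations of same-numbered +/+ and neo/neo libraries from their group means correlated at 0.05, -0.08 and -0.27. The sexes differed within each of these pairs, so the correlations cannot show whether replicate numbers pair the libraries. The Chd8 log2 fold change missed the threshold at -0.18 with only the 6 libraries, with or without the block, at -0.16 among male and -0.20 among female libraries and at -0.064 with the length and GC trend removed, and lay between -0.20 and -0.16 with single libraries left out. Against +/-, 572 genes were called with the replicate block, 387 with sex as a term, 1788 with DESeq2 and 23 to 2100 with single libraries left out. Between neo/- and neo/neo, DESeq2 called 26 and leaving out single libraries 1 to 23. Of 3328 values for 124 named genes, 2671 kept direction and call, 652 lost the call, 1 gained it and 4 reversed. The reversed values were all of genes not called, Axin2 at -0.064 and Ide at -0.054 among male libraries, and without neo/neo replicate 1, in ranges of -0.0059 to 0.18 for Axin2 and -0.0047 to 0.092 for Ide over single libraries left out. Of 1404 list counts, 495 moved by more than 1.5 times, and the median of 17 of the 26 lists kept its sign throughout. The median exon length of genes lower at an unadjusted p under 0.05 was 5386, against 6416 for those called, and the share of genes called higher with an E2F word was 6.39% with TTTCCCGC and TTTGGCGC alone, against 7.52%. The X-linked count of lower genes was 51 with sex as a term, against 66, and 18 with only the 6 libraries. The causes were not tested.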
